A study of Mus musculus with 21 samples.

Results

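The genes described here encode the enzymes and carriers that break down fatty acids in mitochondria and peroxisomes. The 33 genes were taken from a written list of fatty acid oxidation genes and matched by symbol, and all 33 are among the 46517 genes of the deposited counts table. They fall into 10 roles, from the entry of fatty acyl groups with carnitine to the peroxisomal enzymes. By compartment, 20 were assigned to mitochondria, 7 to peroxisomes and 6 to neither alone.

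Hearts of 4 control mice and 3 Notch3-/- mice were compared by bulk RNA sequencing, which measures the RNA of all cells of a tissue together. The question for these genes is whether loss of Notch3 goes with a different RNA level of fatty acid oxidation enzymes in the heart. The mice were of the C57BL/6J strain and 10 to 14 months old. The study describes RNA from fresh-frozen left ventricle for its quantitative PCR, and for the sequencing it names hearts without a region. Control mice were Notch3 +/+, and the Notch3-/- mice carry a lacZ gene inserted in the Notch3 locus. The labels give no sex. Control mice 1 and 2 have labels that begin with X, and the other 5 mice have labels that begin with k, so the X label and the control genotype cannot be told apart in those 2 mice.

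Each mouse gave 3 technical libraries, which were summed. The summed counts came to 3091461, 4638786, 4208205 and 3046326 for control mice 1 to 4. For Notch3-/- mice 1 to 3 they came to 3828763, 5167869 and 5086740. Levels are given as counts per 1000000 counts (CPM) after edgeR's TMM scaling, errors as SD over mice, and differences as log2 fold changes of Notch3-/- against control mice with their SE. A gene is called changed where the false discovery rate (FDR, adjusted over the 14324 genes tested) is under 0.05 and the fold change is at least 1.5.

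Fatty acid oxidation is the main source of energy of the adult heart. Long-chain acyl groups are joined to carnitine, carried across the inner mitochondrial membrane and shortened in the matrix by repeated cycles of dehydrogenation, hydration, oxidation and thiolysis, with separate enzymes for long, medium and short chains. Peroxisomes shorten very long and branched chains with their own set of enzymes, which is prominent in liver.

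Notch3, the targeted gene (ENSMUSG00000038146), served as the check of the labels. It stood at 57.3, 42.1, 57.6 and 61.8 CPM in control mice 1 to 4 and at 6.01, 7.57 and 4.73 CPM in Notch3-/- mice 1 to 3. Every Notch3-/- mouse was far under every control mouse. The log2 fold change was -3.16 (SE 0.23, FDR 0.00173 in edgeR's test, lower in 3 of 3 Notch3-/- mice), and Notch3 fell as the only gene that edgeR called among 14324, 0.00698% of the genes tested. The number of genes called was 936 without Notch3-/- mouse 3 and 597 with DESeq2 on all 7 mice, and Notch3 itself was not called in 2 of the settings run. Its log2 fold change was -3.29 in the 5 mice labelled k alone (FDR 0.206 in edgeR's test) and -3.42 with a hepatocyte covariate, the mean log2 CPM of a list of liver-cell genes, in edgeR's model (FDR 0.081), so the difference was no smaller there.

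Markers of the tissue were read before the members. All 15 genes of the ventricular cardiomyocyte list passed the expression filter, and Ttn, which encodes the giant sarcomere protein titin, was the most abundant of the list at 9153 to 15221 CPM. Genes of liver cells set some of the mice apart. The 30 genes of the hepatocyte list summed to 210, 364, 141 and 150 CPM in control mice 1 to 4, and to 10525, 20592 and 341 CPM in Notch3-/- mice 1 to 3. Notch3-/- mice 1 and 2 thus stood far above the control mice, and the sum of mouse 3 was within the control range. Gene by gene mouse 3 was slightly above it. The median log2 difference of the 30 hepatocyte genes from the control mean was 1.36 in that mouse and at most 1.22 in a control mouse, control mouse 2. In Notch3-/- mice 1 and 2 it was 6.98 and 8.49. The hepatocyte covariate thus went largely with genotype, and fits that hold both separate them poorly. Levels of Xist, which is transcribed from the inactive X chromosome of females, also differed within each genotype. Control mice had 25, 1128, 2 and 3 counts of Xist and Notch3-/- mice 1729, 5 and 3, so high values came in control mouse 2 and Notch3-/- mouse 1.

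Of the 33 members, 32 passed the expression filter and were tested, and Acaa1b was not. EdgeR called 0 of the 32, where it called 0.00698% of all genes tested, and the smallest FDR of a member was 0.237. DESeq2 called 1 of 33 members, Acaa1b, and 3.43% of all genes it tested, so the members were near the background. With every gene of at least 1 count kept, edgeR called 2 of 33, Acaa1b and Ehhadh, and 2.22% of all genes. Without Notch3-/- mouse 3, edgeR called 4 of 33, Acaa1b, Acad10, Decr2 and Ehhadh, and 6.24% of all genes. At an unadjusted p under 0.05, edgeR gave 9 members lower in Notch3-/- hearts and 3 higher, against 3.05% and 7.34% of all genes tested. The 9 lower genes, Cpt1b, Acadl, Hadha, Hadhb, Acadm, Acaa2, Acads, Hadh and Etfa, all encode mitochondrial proteins, and the 3 higher genes, Abcd3, Ehhadh and Decr2, all encode peroxisomal proteins.

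In 11 of the tested members every Notch3-/- mouse was under every control mouse, a pattern found for 3.96% of all genes tested. These were Cpt1b, Acadl, Hadhb, Acadm, Acaa2, Acads, Hadh, Echs1, Decr1, Etfa and Etfdh. Abcd3 was the 1 member with every Notch3-/- mouse above every control mouse, a pattern found for 4.57% of all genes tested. Of the 32 tested members 21 were lower and 11 higher in Notch3-/- hearts, and the median of their log2 fold changes was -0.21. Over all genes tested the median was -0.003 and 50.4% of the genes were lower. Lower RNA of these enzymes in whole tissue can come from fewer cells of a type or from less RNA per cell, which cannot be told apart here. The share of counts of the mitochondrial members also fell with library depth within mice, and Notch3-/- libraries were deeper. These values are given below, and the part of depth was not tested beyond them.

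**Figure D1:**
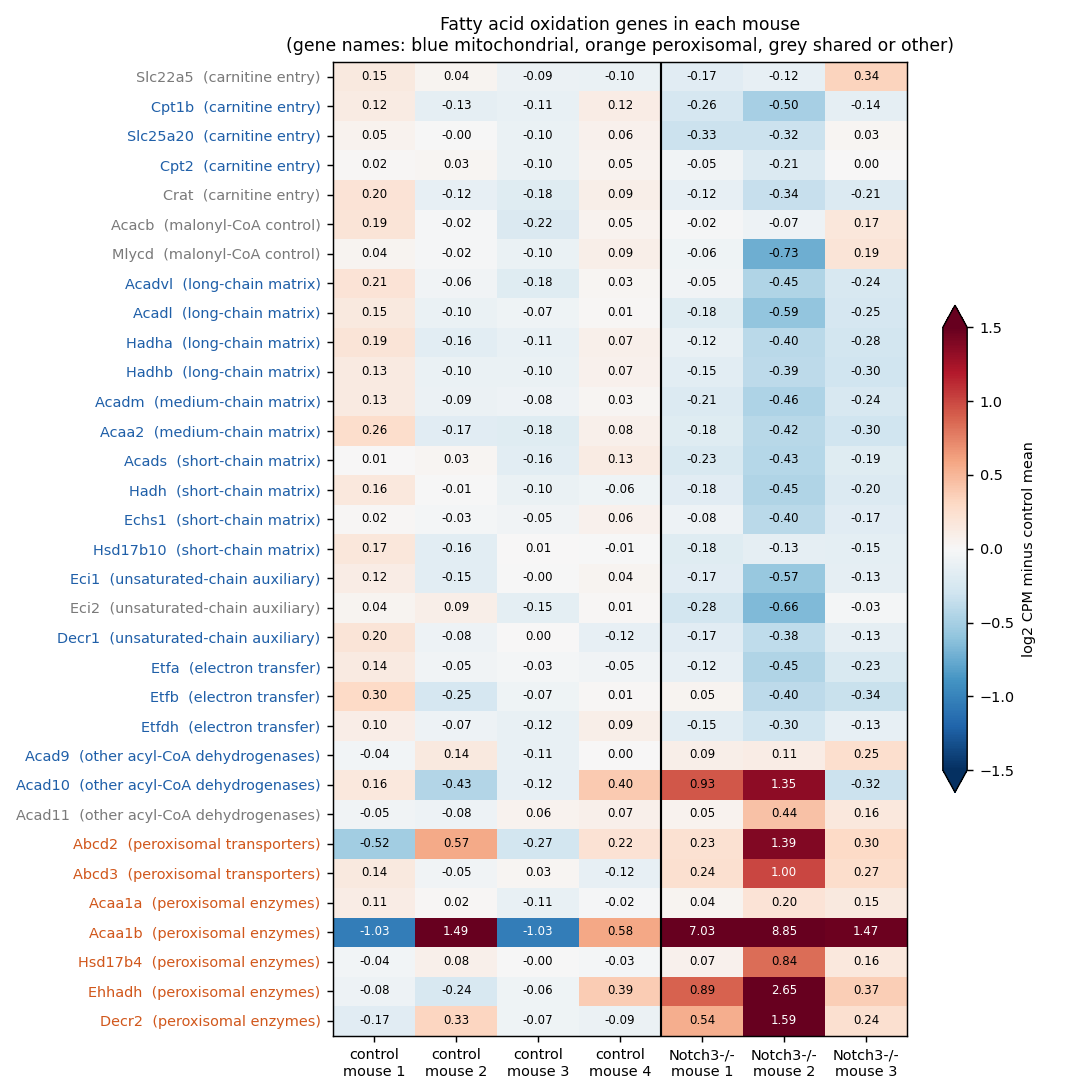
Each line is a member gene with its role, each column is a mouse, and the colour and number in a cell are the log2 CPM minus the control mean, with colours capped at 1.5 either way. The mitochondrial genes (blue names) are lower in the 3 Notch3-/- columns, with medians of -0.16, -0.40 and -0.19, and the tested peroxisomal genes (orange names) are higher, with medians of 0.24, 1.19 and 0.25.

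The members differed widely in level. Per kilobase of the longest coding transcript, Acaa2, the medium-chain thiolase, was the highest in control hearts at 629 CPM per kb. Etfb followed at 531, Acadm at 521, Acadvl at 513 and Acadl at 481 CPM per kb, so enzymes of the electron transfer, long-chain and medium-chain steps lay close together. Peroxisomal genes were lower on the same scale. Acaa1a stood at 82.9, Hsd17b4 at 78.1 and Abcd3 at 68.0 CPM per kb, and Abcd2 at 2.27 and Acaa1b at 0.491 were the lowest of all members.

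The entry of acyl groups into mitochondria involves 5 members. Of these, 4 were lower in Notch3-/- hearts, the median log2 fold change being -0.20, and 1 had an unadjusted edgeR p under 0.05. That gene was Cpt1b (ENSMUSG00000078937, chr15:89416405-89425863 in GRCm38, minus strand), the muscle form of the outer-membrane enzyme that joins long-chain acyl groups to carnitine and sets the rate of entry. Its level was 1148, 961, 977 and 1142 CPM in control mice 1 to 4 and 882, 743 and 956 CPM in Notch3-/- mice 1 to 3. The groups did not overlap, although Notch3-/- mouse 3 was close to control mouse 2. The means were 1057 ± 102 (SD, n = 4) and 860 ± 108 (SD, n = 3), a log2 fold change of -0.30 (SE 0.12, FDR 0.430 in edgeR's test). It was -0.06 with the hepatocyte covariate and -0.15 with the log2 library total as a covariate in limma-voom on the 21 libraries.

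The other entry genes differed less clearly between the groups. Slc25a20, the inner-membrane carrier that exchanges acylcarnitine for carnitine, ranged from 347 to 388 CPM in control mice and from 297 to 380 CPM in Notch3-/- mice, where mouse 3 was as high as control mice. Cpt2, which returns the acyl group to coenzyme A, had a log2 fold change of -0.08 and overlapping groups. For Crat, which moves acetyl groups between carnitine and coenzyme A, it was -0.23, and for Slc22a5, the carnitine transporter of the plasma membrane, 0.03. Slc22a5 was highest of all mice in Notch3-/- mouse 3, at 64.5 CPM against 47.4 to 56.6 CPM in control mice.

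Malonyl-CoA blocks the Cpt1 step, and 2 members set its level. Acacb, the acetyl-CoA carboxylase that makes it at the mitochondrial surface, had a log2 fold change of 0.02, with 367 to 488 CPM in control mice and 407 to 482 CPM in Notch3-/- mice. Mlycd (ENSMUSG00000074064, chr8:119394878-119411102 in GRCm38, plus strand), the decarboxylase that removes it, stood at 110, 105, 99.5 and 114 CPM in control mice and at 102, 64.2 and 122 CPM in Notch3-/- mice. Notch3-/- mouse 2 was the lowest of the 7 mice and Notch3-/- mouse 3 the highest, so the groups overlapped. The log2 fold change of Mlycd was -0.15 (SE 0.20, FDR 0.843 in edgeR's test), and without Notch3-/- mouse 2 it was 0.07.

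The long-chain steps of the matrix are carried out by 4 members. Acadvl and Acadl encode the very-long-chain and long-chain acyl-CoA dehydrogenases, and Hadha and Hadhb the alpha and beta subunits of the trifunctional protein. All 4 were lower in Notch3-/- hearts, with log2 fold changes from -0.33 to -0.25 and a median of -0.27. Summed over the 4 genes, the level was 5083, 4173, 4151 and 4658 CPM in control mice 1 to 4 and 4141, 3299 and 3738 CPM in Notch3-/- mice 1 to 3. Every Notch3-/- mouse was under every control mouse, with Notch3-/- mouse 1 just under control mouse 3.

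Acadl (ENSMUSG00000026003, chr1:66830839-66863277 in GRCm38, minus strand) had the largest difference of the 4 long-chain genes. Its level was 1021, 860, 880 and 929 CPM in control mice and 811, 612 and 774 CPM in Notch3-/- mice. The groups did not overlap, and Notch3-/- mouse 2 was the lowest. The means of Acadl were 922 ± 72.2 (SD, n = 4) and 732 ± 106 (SD, n = 3), with a log2 fold change of -0.33 (SE 0.12, FDR 0.373 in edgeR's test). It was -0.17 with the hepatocyte covariate and -0.19 with the log2 library total as a covariate in limma-voom. Hadhb, the thiolase subunit, did not overlap between the groups either, at 863 to 1018 CPM in control mice and 710 to 835 CPM in Notch3-/- mice.

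The trifunctional protein holds its alpha and beta subunits in equal number, and their genes lie head to head on chromosome 5. Control mice had 1.73, 1.59, 1.66 and 1.67 counts of Hadha per count of Hadhb, and Notch3-/- mice had 1.71, 1.65 and 1.69. The ratio of the subunits thus stayed within the control range in all 3 Notch3-/- mice, while both genes were lower. The starts of Hadha (at 30154980, minus strand) and Hadhb (at 30155253, plus strand) are 273 bases apart, and their promoter windows of 300 bases share 228 bases. The Hadhb window is shown because it covers most of the region between the starts of this co-varying pair. It is from RefSeq, build GRCm38.p6, chr5:30155003-30155302, plus strand, with 60.7% G or C and 24 CpG pairs, and no letter is in capitals because none of the motifs searched was found in it.
Hadhb promoter: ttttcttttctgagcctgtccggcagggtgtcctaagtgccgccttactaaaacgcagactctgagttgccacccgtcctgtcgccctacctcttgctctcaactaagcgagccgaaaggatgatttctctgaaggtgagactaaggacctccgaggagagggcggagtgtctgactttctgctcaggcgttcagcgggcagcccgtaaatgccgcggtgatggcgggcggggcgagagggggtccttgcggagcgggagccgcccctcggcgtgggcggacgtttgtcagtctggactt

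Medium-chain acyl groups are handled by 2 members, and both were lower. Acadm (ENSMUSG00000062908, chr3:153922357-153944632 in GRCm38, minus strand), the medium-chain acyl-CoA dehydrogenase, stood at 1166, 1001, 1011 and 1091 CPM in control mice and at 923, 774 and 900 CPM in Notch3-/- mice. The groups did not overlap, and the highest Notch3-/- mouse was well under the lowest control mouse. The means of Acadm were 1067 ± 77.2 (SD, n = 4) and 866 ± 80.1 (SD, n = 3), a log2 fold change of -0.30 (SE 0.10, FDR 0.349 in edgeR's test). It was -0.19 with the hepatocyte covariate and -0.15 with the log2 library total as a covariate in limma-voom. Acaa2, the thiolase that ends the medium-chain cycle, had a log2 fold change of -0.31, from 837 to 1134 CPM in control mice to 706 to 836 CPM in Notch3-/- mice. Its highest Notch3-/- mouse and lowest control mouse nearly met.

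The short-chain steps have 4 members, and all 4 were lower, with log2 fold changes from -0.28 to -0.16 and a median of -0.24. Acads (ENSMUSG00000029545, chr5:115110299-115119346 in GRCm38, minus strand), the short-chain acyl-CoA dehydrogenase, stood at 484, 492, 430 and 525 CPM in control mice and at 411, 357 and 423 CPM in Notch3-/- mice. The groups did not overlap, although Notch3-/- mouse 3 and control mouse 3 were close. The means of Acads were 483 ± 39.5 (SD, n = 4) and 397 ± 35.3 (SD, n = 3), a log2 fold change of -0.28 (SE 0.11, FDR 0.424 in edgeR's test). It was -0.17 with the hepatocyte covariate and -0.18 with the log2 library total as a covariate in limma-voom. Hadh, the short-chain hydroxyacyl-CoA dehydrogenase, and Echs1, the short-chain enoyl-CoA hydratase, were also under every control mouse in every Notch3-/- mouse, with log2 fold changes of -0.27 and -0.21. Hsd17b10, an X-linked gene for a second hydroxyacyl-CoA dehydrogenase of the matrix, had the smallest difference, -0.16, its groups overlapped, and with only the shallowest library of each mouse it was higher, at 0.15.

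Across chain lengths the differences were alike. The median log2 fold change was -0.27 for the long-chain, -0.31 for the medium-chain and -0.24 for the short-chain steps, and all 10 genes of these steps were lower, 7 of them with every Notch3-/- mouse under every control mouse, a pattern found for 3.96% of all genes tested and 12.6% of those with a control mean of at least 600 CPM. In Notch3-/- mice 1 to 3 the long-chain genes had median log2 differences of -0.13, -0.43 and -0.26 from the control mean. For the medium-chain genes it was -0.19, -0.44 and -0.27, and for the short-chain genes -0.18, -0.42 and -0.18. In each step Notch3-/- mouse 2 was the lowest, and the spread between Notch3-/- mice within a step was wider than the gap between the steps. Summed over the 10 genes, the level was 9286, 7793, 7681 and 8582 CPM in control mice and 7502, 6138 and 6984 CPM in Notch3-/- mice, with no overlap. In limma-voom with the log2 library total as a covariate, the long-chain genes ranged from -0.19 to -0.08. The medium-chain genes were then at -0.15 and -0.08, and the short-chain genes ranged from -0.18 to -0.02. Whether the steps differ from each other was not tested.

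**Figure D2:**
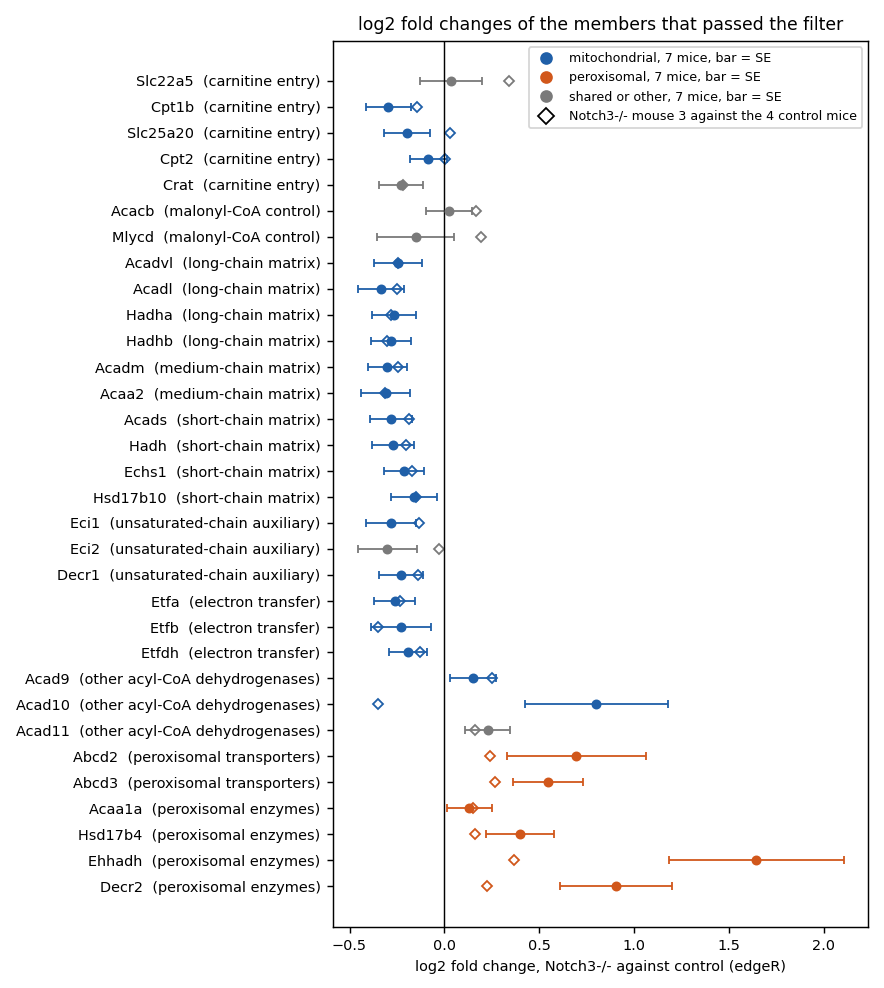
Filled points are the edgeR log2 fold changes of the tested members over 7 mice with bars for the SE, coloured blue for mitochondrial, orange for peroxisomal and grey for shared or other genes, and open diamonds set Notch3-/- mouse 3 alone against the 4 control mice. The medians of the long-chain, medium-chain and short-chain steps lie at -0.27, -0.31 and -0.24 and that of the peroxisomal genes at 0.62, or at 0.23 for the diamonds.

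Double bonds need extra enzymes, and the 3 members of this role were lower, and the median of their log2 fold changes was -0.28. Eci1 (ENSMUSG00000024132, chr17:24426641-24439348 in GRCm38, plus strand), the mitochondrial enoyl-CoA isomerase, stood at 343, 285, 317 and 326 CPM in control mice and at 282, 213 and 289 CPM in Notch3-/- mice. The groups overlapped, since Notch3-/- mouse 3 was above control mouse 2. The means of Eci1 were 318 ± 24.4 (SD, n = 4) and 261 ± 41.8 (SD, n = 3), with a log2 fold change of -0.28 (SE 0.13, FDR 0.499 in edgeR's test), and of -0.02 with the hepatocyte covariate. Eci2, an isomerase found in mitochondria and peroxisomes, had a log2 fold change of -0.30, and its groups overlapped in Notch3-/- mouse 3. Decr1, the mitochondrial dienoyl-CoA reductase, was at 508 to 633 CPM in control mice and 423 to 503 CPM in Notch3-/- mice, without overlap.

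Electrons from every acyl-CoA dehydrogenase pass through the electron transfer flavoprotein, made of the Etfa and Etfb products, to the oxidoreductase encoded by Etfdh. All 3 genes were lower, the median log2 fold change being -0.23, and Etfa and Etfdh did not overlap between the groups. Etfa (ENSMUSG00000032314, chr9:55454508-55512243 in GRCm38, minus strand) stood at 690, 603, 611 and 605 CPM in control mice and at 576, 459 and 533 CPM in Notch3-/- mice. Control mouse 1 was above the other control mice, and Notch3-/- mouse 2 was the lowest of the 7 mice. The means of Etfa were 627 ± 41.8 (SD, n = 4) and 523 ± 59.5 (SD, n = 3), a log2 fold change of -0.26 (SE 0.11, FDR 0.456 in edgeR's test). Etfdh had a log2 fold change of -0.19 and Etfb of -0.23, the latter with overlapping groups. In limma-voom with the log2 library total as a covariate, Etfa was at -0.12, Etfdh at -0.08 and Etfb at 0.0018.

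The promoter windows of Etfa and Etfdh are shown because these partners were lower together and each holds a match to a motif searched in the member windows. Both are from RefSeq, build GRCm38.p6, minus strand, at chr9:55512194-55512493 for Etfa and chr3:79628718-79629017 for Etfdh. The capitals in Etfa mark a match, on the opposite strand and with up to 2 mismatches, to 2 copies of AGGTCA in direct repeat with any 1 base between them, the element (DR1) that nuclear receptors such as the PPAR family bind. The capitals in Etfdh mark a match to GCGCA followed at once by its reverse complement, the palindrome bound by NRF1, a regulator of many mitochondrial genes.
Etfa promoter: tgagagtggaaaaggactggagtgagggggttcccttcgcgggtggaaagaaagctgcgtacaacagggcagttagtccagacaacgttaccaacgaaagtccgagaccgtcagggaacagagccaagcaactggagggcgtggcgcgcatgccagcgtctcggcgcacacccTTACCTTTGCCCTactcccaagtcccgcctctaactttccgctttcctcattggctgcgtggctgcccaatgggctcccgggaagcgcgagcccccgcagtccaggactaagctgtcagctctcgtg
Etfdh promoter: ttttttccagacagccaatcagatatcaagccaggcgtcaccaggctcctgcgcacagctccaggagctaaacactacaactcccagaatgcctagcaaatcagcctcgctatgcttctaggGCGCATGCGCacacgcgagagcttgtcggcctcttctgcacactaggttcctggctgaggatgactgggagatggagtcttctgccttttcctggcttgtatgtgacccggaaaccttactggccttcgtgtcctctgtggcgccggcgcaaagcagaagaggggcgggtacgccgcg

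A match is a description, not a site. Of the 33 members, 26 matched an entry of the promoter table, with 27 windows of 300 bases that begin 250 bases before the start, and the windows were searched on both strands beside all 32544 windows of the table. Entries were missing for Cpt1b, Crat, Acaa2, Decr1, Acad9, Abcd2 and Hsd17b4. The DR1 element, with up to 2 mismatches, was in 3 member windows (Echs1, Etfa and Slc25a20), 11.1% of them against 3.87% of all windows. The NRF1 palindrome was in 2 member windows (Acad10 and Etfdh), 7.41% against 0.974%. The half-site AGGTCA, which lies inside the DR1 element, was in the windows of Acacb, Acadm, Acadvl and Echs1, 14.8% against 16.2%, and the same half-site with TCA directly before it, which estrogen-related receptors bind, was in 0 of the 27 windows, against 0.412%.

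Of the less studied acyl-CoA dehydrogenases, 3 are members, and all 3 were higher in Notch3-/- hearts, and the median of their log2 fold changes was 0.23. Acad10 (ENSMUSG00000029456, chr5:121621026-121660514 in GRCm38, minus strand) had the largest difference, from a low level. It stood at 15.5, 10.1, 12.7 and 18.4 CPM in control mice and at 26.8, 36.0 and 11.0 CPM in Notch3-/- mice. Notch3-/- mice 1 and 2 were above every control mouse, and Notch3-/- mouse 3 was among the lowest. The log2 fold change of Acad10 was 0.80 (SE 0.38, FDR 0.497 in edgeR's test), it was called at 1.15 without Notch3-/- mouse 3, and it was -0.35 with that mouse as the only Notch3-/- mouse. Leaving out Notch3-/- mouse 2 gave 0.41 for Acad10, and the hepatocyte covariate turned it to -0.49. Acad9, which also takes part in the assembly of respiratory complex I, and Acad11 had log2 fold changes of 0.15 and 0.23.

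Peroxisomes take up acyl groups through ABC transporters, 2 of which are members. Abcd3 (ENSMUSG00000028127, chr3:121758774-121815302 in GRCm38, minus strand), a transporter of branched-chain acyl groups and bile acid precursors, stood at 261, 229, 242 and 217 CPM in control mice and at 280, 475 and 285 CPM in Notch3-/- mice. Every Notch3-/- mouse was above every control mouse, with Notch3-/- mouse 2 far above the rest. The means of Abcd3 were 237 ± 18.7 (SD, n = 4) and 346 ± 111 (SD, n = 3), a log2 fold change of 0.55 (SE 0.19, FDR 0.342 in edgeR's test). Without Notch3-/- mouse 2 the log2 fold change of Abcd3 was 0.25, and with the hepatocyte covariate 0.14. Abcd2, a transporter of very long chains, was at 8.23 to 18.1 CPM in control mice and at 14.2 to 32.2 CPM in Notch3-/- mice, with a log2 fold change of 0.70.

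The peroxisomal enzymes are 5 members, and the 4 that were tested were all higher, with a median log2 fold change of 0.65. Ehhadh (ENSMUSG00000022853, chr16:21761287-21787807 in GRCm38, minus strand), the L-bifunctional enzyme, had the lowest p of all members. It stood at 38.5, 34.4, 39.1 and 53.4 CPM in control mice and at 76.0, 258 and 52.9 CPM in Notch3-/- mice. Notch3-/- mice 1 and 2 were above every control mouse, and Notch3-/- mouse 3 was just under the highest control mouse. The means of Ehhadh were 41.3 ± 8.33 (SD, n = 4) and 129 ± 112 (SD, n = 3), a log2 fold change of 1.64 (SE 0.46, FDR 0.237 in edgeR's test), which is 3.13-fold. Without Notch3-/- mouse 2 it was 0.64, without Notch3-/- mouse 3 it was called at 2.01, and with the hepatocyte covariate it was 0.00941.

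Decr2, the peroxisomal dienoyl-CoA reductase, was at 41.2 to 58.2 CPM in control mice and at 67.8, 141 and 54.8 CPM in Notch3-/- mice, with a log2 fold change of 0.90 (SE 0.30, FDR 0.321 in edgeR's test). Hsd17b4, the D-bifunctional enzyme that serves very long and branched chains, was at 203 to 221 CPM in control mice and at 220, 375 and 235 CPM in Notch3-/- mice, with a log2 fold change of 0.40. In both genes Notch3-/- mouse 2 was the highest, and in both the groups overlapped. Leaving out Notch3-/- mouse 2 took the log2 fold change of Decr2 to 0.38 and that of Hsd17b4 to 0.12. The hepatocyte covariate took them to -0.08 and 0.015.

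Acaa1a and Acaa1b encode paralogous thiolases that end the peroxisomal cycle, and they behaved differently. Acaa1a (ENSMUSG00000036138, chr9:119339676-119350299 in GRCm38, plus strand) stood at 158, 148, 135 and 144 CPM in control mice and at 150, 168 and 162 CPM in Notch3-/- mice. The groups overlapped through Notch3-/- mouse 1. The means of Acaa1a were 146 ± 9.32 (SD, n = 4) and 160 ± 9.16 (SD, n = 3), a log2 fold change of 0.13 (SE 0.12, FDR 0.739 in edgeR's test).

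Acaa1b (ENSMUSG00000010651, chr9:119148023-119157093 in GRCm38, minus strand), known as a liver-enriched gene, was almost without counts in control mice 1 to 4, at 0, 11, 0 and 3, and reached 476, 2194 and 12 counts in Notch3-/- mice 1 to 3. These counts of Acaa1b correspond to 0, 2.32, 0 and 1.00 CPM and to 130, 461 and 2.27 CPM. Notch3-/- mice 1 and 2 stood far above all other mice, while Notch3-/- mouse 3 was level with control mouse 2. Acaa1b did not pass edgeR's filter with 7 mice. DESeq2, which tested it, called it higher, with a log2 fold change of 7.86 (SE 2.01, FDR 0.00618 in DESeq2's test, above all control mice in 2 of 3 Notch3-/- mice). Nearly all of its counts come from those 2 mice, so the call adds nothing to the counts themselves. Per count of Acaa1a, control mice had 0, 0.0157, 0 and 0.00698 counts of Acaa1b and Notch3-/- mice 0.867, 2.75 and 0.0140, so only Notch3-/- mouse 2 had more counts on Acaa1b than on Acaa1a.

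The coding sequences of this pair are close enough that some reads could be assigned to either gene. Of 1275 coding bases 1231 are identical, 96.5%, with a longest identical run of 327 bases. Reads were 51 bases long, and of the 51-base stretches of Acaa1b 30.1% also occur in Acaa1a, while 12.3% of those of Acaa1a occur in Acaa1b. The stretch at coding positions 268 to 318 is shown because it has the most differences of the 1225 coding stretches of read length. It tells the genes apart at 11 positions, which are in capitals. The median stretch had 1 difference, and 460 stretches had none. Both sequences are read from the GENCODE vM21 transcripts, 5′ to 3′ along the coding strand.
Acaa1a stretch: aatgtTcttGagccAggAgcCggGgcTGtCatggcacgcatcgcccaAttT
Acaa1b stretch: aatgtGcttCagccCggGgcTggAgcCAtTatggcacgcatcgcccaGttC

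The promoters of the peroxisomal genes are shown because levels of Ehhadh and Acaa1b were high in the same mice while Acaa1a was not. The windows are from RefSeq, build GRCm38.p6, at chr16:21787785-21788084 on the minus strand for Ehhadh, chr9:119341044-119341343 on the plus strand for Acaa1a and chr9:119157044-119157343 on the minus strand for Acaa1b. None of the motifs searched was found in them, so they hold no capitals. The windows of Ehhadh and Acaa1b differ in composition, with 60.7% G or C and 14 CpG pairs in Ehhadh against 43.7% and 4 in Acaa1b.
Ehhadh promoter: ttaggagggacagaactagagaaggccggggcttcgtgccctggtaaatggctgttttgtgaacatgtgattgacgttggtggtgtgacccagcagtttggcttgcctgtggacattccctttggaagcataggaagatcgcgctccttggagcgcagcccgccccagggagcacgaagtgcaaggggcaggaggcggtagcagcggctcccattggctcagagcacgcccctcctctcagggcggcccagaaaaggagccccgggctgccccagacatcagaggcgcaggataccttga
Acaa1a promoter: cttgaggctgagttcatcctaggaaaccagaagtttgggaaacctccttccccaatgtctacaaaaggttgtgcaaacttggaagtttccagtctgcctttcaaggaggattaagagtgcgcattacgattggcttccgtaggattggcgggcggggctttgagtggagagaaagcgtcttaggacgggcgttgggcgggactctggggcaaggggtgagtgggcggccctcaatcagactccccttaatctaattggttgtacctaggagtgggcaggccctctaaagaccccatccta
Acaa1b promoter: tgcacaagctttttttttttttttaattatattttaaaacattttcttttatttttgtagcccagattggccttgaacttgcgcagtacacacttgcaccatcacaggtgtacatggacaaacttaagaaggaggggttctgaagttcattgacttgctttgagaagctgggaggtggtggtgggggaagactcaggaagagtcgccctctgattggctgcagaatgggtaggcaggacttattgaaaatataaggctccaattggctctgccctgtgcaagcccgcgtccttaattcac

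Between compartments the members differed in direction. Of the 20 mitochondrial genes 18 were lower, the median log2 fold change being -0.25, and of the 6 tested peroxisomal genes all 6 were higher, with a median of 0.62. The mitochondrial exceptions were Acad9 and Acad10. All 15 ventricular cardiomyocyte genes were lower too, at a median of -0.25. The mitochondrial median was -0.09 with the log2 library total as a covariate in limma-voom. The 6 members assigned to neither compartment alone split into 3 lower and 3 higher, with a median of -0.06. Compartment and level went together. By control mean, 7 mitochondrial members lay from 300 to 600 CPM and 10 from 600 CPM, with 0 tested peroxisomal members in either range. From 100 to 300 CPM the 2 mitochondrial members had a median of -0.004 and the 3 peroxisomal members of 0.40. The part of level in the difference between compartments was not tested. Without Notch3-/- mouse 2 the median was -0.16 for the mitochondrial and 0.23 for the peroxisomal genes, and 6 of 6 tested peroxisomal genes were still higher. With the hepatocyte covariate 4 of 6 were higher, and Abcd2 and Decr2 turned to -0.11 and -0.08.

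Summed over the 20 mitochondrial members, the level was 14693, 12463, 12376 and 13666 CPM in control mice 1 to 4 and 11982, 9985 and 11521 CPM in Notch3-/- mice 1 to 3. Every Notch3-/- mouse was under every control mouse, and Notch3-/- mouse 2 was the lowest. The means of these sums were 13299.6 ± 1099.8 (SD, n = 4) and 11163 ± 1046 (SD, n = 3). Summed over the 7 peroxisomal members, the level was 710, 710, 679 and 678 CPM in control mice and 938, 1910 and 807 CPM in Notch3-/- mice. The control mice lay close together, and every Notch3-/- mouse was above them, with Notch3-/- mouse 2 far above. The means were 694 ± 18.4 (SD, n = 4) and 1218 ± 603 (SD, n = 3).

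Set against each other in the same mouse, control mice had 4.83, 5.70, 5.49 and 4.96 CPM of peroxisomal members for each 100 CPM of mitochondrial members, and Notch3-/- mice had 7.82, 19.1 and 7.0. The ratio was higher in all 3 Notch3-/- mice than in any control mouse. Both of its parts moved with library depth within mice, with median slopes of -0.26 for mitochondrial and 0.20 for tested peroxisomal members. Notch3-/- libraries were deeper, and the part of depth in the ratio was not tested. Of the 6 tested peroxisomal genes, Notch3-/- mouse 1 was above every control mouse for 3, mouse 2 for 6 and mouse 3 for 3. For single mice the share over all genes tested is not given, so such counts, here and below, stand without a background. The test of the difference between compartments was not run, since the members were chosen with earlier results known.

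Markers of liver cells were far above the control mice in Notch3-/- mice 1 and 2. Read gene by gene, they stood slightly above the control mice in Notch3-/- mouse 3 too. The peroxisomal sum was higher in all 3 Notch3-/- mice. Of the 30 hepatocyte genes 26 were tested, all 26 were higher with an unadjusted edgeR p under 0.05, and their median log2 fold change was 6.99. EdgeR called 0 of the 26, and DESeq2, which filters differently, called 29 of the 30. Notch3-/- mice 1 and 2 exceeded every control mouse for all 26, and Notch3-/- mouse 3 for 13. The most abundant of them, Trf, which encodes transferrin, stood at 132, 144, 102 and 98.2 CPM in control mice and at 1420, 1790 and 130 CPM in Notch3-/- mice. Only 3 of the 26 reached 10 CPM as a mean over control hearts. Hepatocyte genes without a single count numbered 4, 0, 9 and 8 in control mice and 0 in each Notch3-/- mouse.

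With the hepatocyte score as a covariate in edgeR's model, the median log2 fold change of the peroxisomal members was 0.01, and that of the mitochondrial members was -0.17. The score went largely with genotype, so this fit separates the terms poorly. In Notch3-/- mouse 3, the 1 Notch3-/- mouse within the control range of the summed hepatocyte genes, the peroxisomal median against the 4 control mice was 0.23 and the mitochondrial median -0.19. In that mouse Abcd3, Acaa1a and Hsd17b4 were above every control mouse. The part of liver-cell RNA in the peroxisomal difference was not tested beyond these values.

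**Figure D3:**
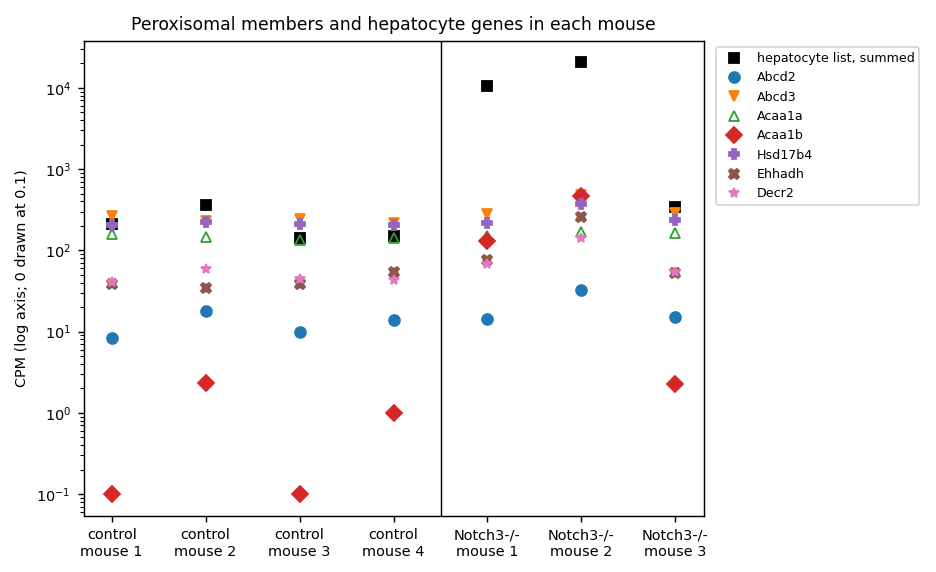
CPM on a log axis in each mouse for the 7 peroxisomal members and for the sum of the 30 hepatocyte genes (black squares), with 0 drawn at 0.1. The hepatocyte sum is 10525 and 20592 CPM in Notch3-/- mice 1 and 2, where Acaa1b reaches 130 and 461 CPM, and 341 CPM in Notch3-/- mouse 3, where Acaa1b is at 2.27 CPM.

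Depth was examined between the technical libraries of the same mouse, which share their RNA and genotype. The slope of log2 CPM on the log2 library total, with each mouse given its own level, says how the share of a gene differs between shallow and deep libraries. For mitochondrial members the median slope was -0.26, and 18 of 20 were below 0, 14 of them by more than 2 SE. For the 6 tested peroxisomal members the median slope was 0.20 and 0 of 6 were below 0. Over all genes tested the median was 0.18, with 26.2% below 0 and 3.24% below 0 by more than 2 SE. Without control mouse 4 the median slope was -0.35 for the mitochondrial and 0.35 for the peroxisomal members.

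The counts of each gene were also set against the length of its exons. Of the 33913 genes whose exons span 500 bases or more, none went over 2 counts for each of those bases in a library. The highest of them, AY036118, named after its values were seen, lay between 1.76 and 1.97 counts per exon base in libraries of 464390 to 2427783 counts. Members were further from that level, the highest being Acaa2 at 1.06. With counts corrected for saturation at 2 counts per exon base, the median log2 fold change of the mitochondrial members was -0.26. Their median slope was then -0.19, or -0.16 with the longest coding transcript as length, both chosen after seeing the data.

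Among the negative slopes the steepest came from abundant enzymes. Etfb had a slope of -0.50, Acaa2 of -0.49 and Hadha of -0.41, while Ehhadh, with 0.71, and Acad9, with 0.45, sloped the other way. By chain length the median slope was -0.38 for the long-chain, -0.40 for the medium-chain and -0.20 for the short-chain genes. Cpt1b, Acadl and Acadm, which the mouse-by-mouse values show as lower, had slopes of -0.26, -0.27 and -0.31.

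Within each of the 7 mice the mitochondrial members were lower in the deepest library than in the shallowest. Their summed level in the shallowest and deepest library was 15702 and 13420 CPM in control mouse 1, 14171 and 11326 in control mouse 2, 13173 and 11262 in control mouse 3, and 16199.7 and 12569 in control mouse 4. In Notch3-/- mouse 1 it was 12334 and 10677 CPM, in mouse 2 9100.4 and 9000.0, and in mouse 3 14116 and 10916. The gap was smallest in Notch3-/- mouse 2. Peroxisomal members were higher in the deepest library in 6 of the 7 mice, all but control mouse 1.

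**Figure D4:**
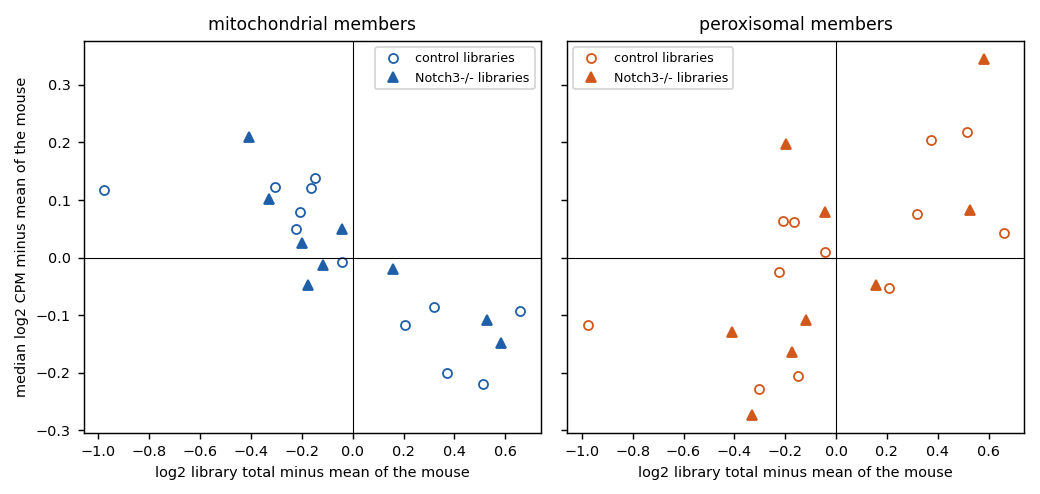
Each point is 1 technical library (open circles control, triangles Notch3-/-), with its log2 total minus the mean of its mouse on the horizontal axis and the median over members of log2 CPM minus the mean of the mouse on the vertical axis. Points of the 20 mitochondrial members (left, blue) run downward with depth and those of the 6 tested peroxisomal members (right, orange) mostly upward, and mitochondrial members are lower in the deepest than in the shallowest library of all 7 mice.

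Notch3-/- libraries were deeper. The mean log2 library total was 20.17 over the 12 control libraries and 20.52 over the 9 Notch3-/- libraries, so the genotype and part of the depth moved together. With the log2 library total as a covariate in limma-voom on the 21 libraries, the median log2 fold change of the mitochondrial members was -0.09, against -0.27 without it. In the same fit the peroxisomal median was 0.48. With the summed counts thinned to the smallest mouse total the mitochondrial median was -0.25, and with only the shallowest library of each mouse -0.27. Thinning keeps the share of each gene, and the shallowest libraries still ranged from 464390 to 1583662 counts. Neither value therefore tests the part of depth.

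Abundant genes as a whole were also lower in Notch3-/- hearts. Among the 190 genes with a control mean of at least 600 CPM, 10 of which are mitochondrial members, 90.5% were lower in Notch3-/- hearts, at a median log2 fold change of -0.21 and a median slope of -0.28. For those 10 members the values were -0.28 and -0.29, and every Notch3-/- mouse was under every control mouse in 8 of the 10, against 12.6% of the 190 genes. Among the 371 genes from 300 to 600 CPM, the median was -0.12 with 74.4% lower, and the 7 mitochondrial members there had a median of -0.23. Genes under 30 CPM had a median of 0.04 and a slope of 0.22. With the depth covariate in limma-voom the median log2 fold change of the genes from 600 CPM was -0.02, against -0.22 without it. Whether the mitochondrial members differ from other abundant genes was not tested. The part of depth in the lower level of the mitochondrial members was not tested beyond these values.

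**Figure D5:**
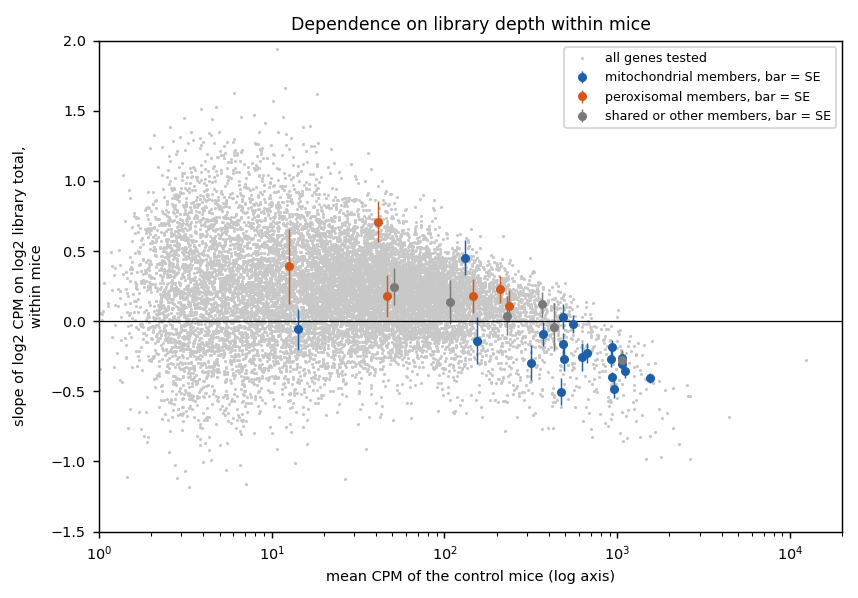
Slope of log2 CPM on log2 library total within mice against the mean CPM of the control mice (log axis), with a grey point for each gene tested and coloured points with SE bars for mitochondrial (blue), peroxisomal (orange) and shared or other members (grey). Genes from 600 CPM have a median slope of -0.28 and the mitochondrial members a median of -0.26, and genes under 30 CPM have a median of 0.22.

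Other genes of the same pathways were read from lists of other mitochondrial fatty acid genes, other peroxisomal genes and regulators. Of the 15 other mitochondrial fatty acid genes, which include the acyl-CoA synthetases, 6 were lower and 9 higher, with a median log2 fold change of 0.03. EdgeR and DESeq2 called 0 of them. At an unadjusted edgeR p under 0.05, 3 were lower and 3 higher, against 3.05% and 7.34% of all genes tested. The 3 with the lowest p were all acyl-CoA synthetases and all higher. Acsl5 stood at 35.6, 39.6, 37.6 and 45.8 CPM in control mice and at 108, 346 and 42.9 CPM in Notch3-/- mice, with a log2 fold change of 2.06 (SE 0.54, FDR 0.206 in edgeR's test). Notch3-/- mouse 3 was within the control range of Acsl5, which edgeR called when that mouse was left out. Leaving out Notch3-/- mouse 2 instead gave a log2 fold change of 0.92 for Acsl5. Acsl3 and Acsl4 had log2 fold changes of 0.93 and 0.94, and Acsl1, the main synthetase of heart and the most abundant of the list, had 0.03 (SE 0.09). With the hepatocyte covariate Acsl5 turned to -0.38 and Acsl4 to -0.05, and Acsl3 was at 0.02.

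Of the 30 tested genes among 31 other peroxisomal genes, 24 were higher, with a median log2 fold change of 0.23, and edgeR called 0, with 11 higher and 0 lower at an unadjusted p under 0.05, against 7.34% and 3.05% of all genes tested. DESeq2 called 5 of the list, Acox2, Crot, Hacl1, Pecr and Slc27a2, and 3.43% of all genes it tested. Hacl1, a lyase of the alpha-oxidation of branched chains, stood at 24.0, 32.2, 27.5 and 28.4 CPM in control mice and at 115, 257 and 35.2 CPM in Notch3-/- mice. Every Notch3-/- mouse was above every control mouse, by little in mouse 3. The log2 fold change of Hacl1 was 2.27 (SE 0.50, FDR 0.156 in edgeR's test). Acox2, an oxidase of bile acid precursors and branched chains, had 4.53, and Crot, which joins peroxisomal products to carnitine, had 1.10. Leaving out Notch3-/- mouse 2 gave 1.40 for Hacl1, 2.25 for Acox2 and 0.46 for Crot. EdgeR called these 3 genes when Notch3-/- mouse 3 was left out. With the hepatocyte covariate all 3 turned, Hacl1 to -0.15, Acox2 to -0.52 and Crot to -0.12.

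Of the 9 regulators of fatty acid oxidation 6 were lower and 3 higher, with a median log2 fold change of -0.14, and edgeR and DESeq2 called 0. At an unadjusted edgeR p under 0.05, 1 was higher and 0 lower, against 7.34% and 3.05% of all genes tested. Rxra, the partner of many nuclear receptors, had a log2 fold change of 0.57, Ppara, the receptor that drives many of these enzymes, 0.33, and Ppargc1b, a coactivator of mitochondrial genes, -0.26. Ppara stood at 86.3, 122, 107 and 98.9 CPM in control mice and at 116, 173 and 101 CPM in Notch3-/- mice, so mice 1 and 3 were within the control range. The signs of these 3 genes turned with the hepatocyte covariate, to -0.18 for Rxra, -0.22 for Ppara and 0.29 for Ppargc1b, and with Notch3-/- mouse 3 as the only Notch3-/- mouse, to -0.02, -0.04 and 0.08.

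Mitochondrial pathways that follow fatty acid oxidation were also lower. All 18 tricarboxylic acid cycle genes and all 22 respiratory chain genes had negative log2 fold changes, with medians of -0.22 and -0.27, close to -0.25 for the mitochondrial members. In the tricarboxylic acid cycle list 3 genes, and in the respiratory chain list 1, had every Notch3-/- mouse under every control mouse, against 11 of the 20 mitochondrial members and 3.96% of all genes tested. Their share of counts also fell with depth within mice, with median slopes of -0.37 for the tricarboxylic acid cycle and -0.48 for the respiratory chain, against -0.26 for the mitochondrial members. Notch3-/- mouse 1 was nearer the control mice in those lists, with median log2 differences from the control mean of -0.06 for the tricarboxylic acid cycle and -0.02 for the respiratory chain, against -0.16 for the mitochondrial members. Whether the lists differ, and the part of depth in their lower level, was not tested.

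Several members share exon sequence with neighbours, and their counts are uncertain in level. Exons of 12 members overlap those of another gene, 4 of them on the same strand, and whether counting used the strand of reads is not given in the sources used here. Acadvl shares 1151 bases with Dvl2 on the opposite strand, and Dvl2 had 0.484 to 0.509 counts per count of Acadvl over the 7 mice. Etfb shares 617 bases with Gm45233, 53.0% of its exon bases, at 0.775 to 0.783 counts per count of Etfb. Cpt1b shares 81.4% of its exon bases with Gm44502, a read-through gene that is not in the counts table. The ratios of Dvl2 to Acadvl and of Gm45233 to Etfb hardly varied between mice. Whether the same reads were counted for both genes of a pair is not known. The counts of each neighbour therefore cannot be taken as a measurement separate from the member. Dlec1, which overlaps Acaa1b by 224 bases, was at 1, 6, 0 and 3 counts in control mice and at 103, 401 and 4 in Notch3-/- mice, high in the same mice as Acaa1b. Stretches of 51 bases are also shared by Hadhb with Gm13910 (1225 stretches), Acad10 with Acad12 (1012) and Slc22a5 with Slc22a21 (799).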

How the data were processed

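The deposited values are counts, whole numbers of reads per Ensembl gene that the authors did not normalise, in 21 technical libraries of 7 mice. The submitters' processing notes name mm10 and CASAVA. The aligner, the counting program, its strand setting and the handling of duplicate reads are not given in the sources used here. The 92 spike-in sequences, with 34 counts in all, were left out, and no library was.

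The 33 members and the 17 gene lists were chosen with earlier results of these data known. Members were matched by symbol, and coordinates, exon lengths and transcripts come from GENCODE vM21 (GRCm38), in which 46005 of the 46517 gene identifiers were found. Counts of the 3 libraries were summed per mouse, giving 3046326 to 5167869 counts. The reads come from PCR without molecular identifiers, so the precision that depth gives covers counting error only. Genotypes were compared in R 4.3.3 with edgeR 4.0.16 (filterByExpr, TMM factors, quasi-likelihood F-test, genotype as the only term, Benjamini-Hochberg over all genes tested), with calls at an FDR under 0.05 and a fold change of at least 1.5. Log2 CPM used a prior count of 2. The slope within mice is from a linear model of log2 CPM on log2 library total with the mouse as a factor, over 21 libraries. No test was run over the members as a set.

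Values are given mouse by mouse for the member with the lowest edgeR p in each of the 10 roles, for Acadl and Acadm, for the paralogs Acaa1a and Acaa1b and for members that did not pass the filter. The other named genes are the 3 with the lowest edgeR p in each of the lists of other mitochondrial fatty acid genes, other peroxisomal genes and regulators, and the most abundant gene of each marker list. The values of 1 gene of these lists are not reported here.

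The alternatives tried were DESeq2 1.42.0, other scaling factors, other filters, leaving out each mouse, only the k-labelled mice, limma 3.58.1 (voom) on 21 libraries with the mouse as a random effect, alone, with a replicate block or with a depth covariate, the shallowest and deepest library of each mouse, counts thinned to the smallest mouse total, a correction for saturation of counts at 2 counts per exon base, and a hepatocyte score as a covariate. The steps were tested on simulated data. Promoter windows are from RefSeq (GRCm38.p6), and matches were searched on both strands.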

Additional observations from a re-analysis of the deposited data

Results flagged for a closer look

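In 60 genes the 4 control mice were searched for a single mouse far from the others, and 3 genes had one. Chance alone gives such a mouse in about 1 in 20 groups. Control mouse 1 stood apart for Etfa, at 690 CPM, where its gap to the nearest control mouse was 0.901 of the whole range on the log2 scale. Control mouse 2 stood apart for Acsl4, at 23.2 CPM, with a gap of 0.903 of the range, and control mouse 1 for Acsl1, at 1119 CPM, with a gap of 0.847. All 3 were high values. The groups of 3 Notch3-/- mice were too small for this search.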

How the results depend on the processing

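The number of genes called depended on the setting. It was 597 with DESeq2, 639 with every gene of at least 1 count, 0 in the 5 mice labelled k, 65 with limma-voom on 21 libraries, 11 with a depth covariate added, 33 with the shallowest and 62 with the deepest libraries, 0 with the hepatocyte covariate, and 1 to 936 with a mouse left out. In the fit with a replicate block it was 62, with 0 members called and medians of -0.27 for mitochondrial and 0.58 for peroxisomal members. The replicate block takes the technical replicate number as shared between mice. Correlations over genes between control and Notch3-/- libraries of the same number, each averaged over mice, were -0.06, -0.02 and -0.05. They showed no pairing by number, but correlations of such averages cannot exclude it. Members called were 1 with DESeq2, 2 with every gene and 0 to 4 with a mouse left out.

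The mitochondrial median was -0.0934 with the depth covariate, -0.32 to -0.16 with a mouse left out, and between -0.32 and -0.16 in every other setting run. The peroxisomal median was 0.69 with DESeq2, 0.67 with every gene, 0.77 in mice labelled k, 0.48 with the depth covariate, 0.42 with the shallowest libraries, 0.69 with thinned counts, 0.0122 with the hepatocyte covariate and 0.23 to 0.89 with a mouse left out. With Notch3-/- mouse 3 as the only Notch3-/- mouse, an alternative chosen after seeing the data in which that mouse is assumed to vary like the control mice, it was 0.23. Some of these medians include Acaa1b, which did not pass the filter with 7 mice. Over the 6 genes without Acaa1b the median was 0.61 with DESeq2, 0.60 with every gene, 0.68 in mice labelled k, 0.62 with thinned counts and 0.23 to 0.79 with a mouse left out, against 0.62. The cause of the other shifts was not tested.

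The median depth slope was -0.35 to -0.23 for mitochondrial and 0.18 to 0.35 for peroxisomal members with a mouse left out. With counts corrected for saturation, an alternative chosen for the slope after seeing the data, it was -0.19 for mitochondrial members, and -0.16 with the longest coding transcript as length.

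Mlycd changed sign to 0.0719 without Notch3-/- mouse 2, 0.17 with the deepest libraries, 0.33 with the hepatocyte covariate and 0.19 with Notch3-/- mouse 3 only. The hepatocyte covariate also turned Slc25a20 to 0.06, Cpt2 to 0.02, Eci2 to 0.02, Abcd2 to -0.11, Decr2 to -0.08, Acad10 to -0.49, Acsl5 to -0.38, Acsl4 to -0.0534, Hacl1 to -0.15, Acox2 to -0.52, Crot to -0.12, Rxra to -0.18, Ppara to -0.22 and Ppargc1b to 0.29. With Notch3-/- mouse 3 only, Acad10 was -0.35, Rxra -0.0166, Ppara -0.0382, Ppargc1b 0.0800, Slc25a20 0.03 and Cpt2 0.00409. Among the other members, Hsd17b10 was 0.15, Slc22a5 -0.27, Acacb -0.27 and Acad9 -0.0391 with the shallowest libraries, Acacb -0.20 and Cpt2 0.0559 with the deepest, and Etfb 0.0018 and Slc22a5 -0.0177 with the depth covariate. Slc22a5 was also -0.0313 with thinned counts, and Slc22a5 and Acacb were -0.16 and -0.0597 without Notch3-/- mouse 3 and -0.00823 and -0.0549 without control mouse 3. The cause was not tested, and the hepatocyte covariate went largely with genotype.

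With a mouse left out, log2 fold changes ranged from -3.35 to -3.0 for Notch3, -0.39 to -0.20 for Cpt1b, -0.41 to -0.22 for Acadl, -0.35 to -0.23 for Acadm, -0.34 to -0.21 for Acads, -0.37 to -0.15 for Eci1, -0.34 to -0.18 for Etfa, -0.37 to 0.07 for Mlycd, 0.41 to 1.15 for Acad10, 0.25 to 0.68 for Abcd3, 0.64 to 2.01 for Ehhadh and 0.09 to 0.18 for Acaa1a. With the hepatocyte covariate it was -0.06 for Cpt1b, -0.17 for Acadl, -0.19 for Acadm, -0.17 for Acads, -0.02 for Eci1, -0.19 for Etfa, 0.14 for Abcd3, 0.00941 for Ehhadh and 0.02 for Acsl3. With the depth covariate it was -0.15 for Cpt1b, -0.19 for Acadl, -0.15 for Acadm, -0.18 for Acads, -0.13 for Eci1 and -0.12 for Etfa.

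Depth limits genes such as Abcd2 and Acad10, with few counts per mouse. With 3 Notch3-/- mice, the calls of peroxisomal genes rest on the tool, the filter and which mice are kept.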

Other observations

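Marker lists of other cells of the heart were read in the same fit, in which edgeR called none of their genes, and DESeq2 called Myh11 of the vascular smooth muscle list and Col1a1 and Col3a1 of the fibroblast list. The 15 ventricular cardiomyocyte genes were all lower in Notch3-/- hearts, the median log2 fold change being -0.25, and 1 gene, Ckm, is also in the skeletal muscle list. Summed over the list, they stood at 38722, 28278, 32671 and 37377 CPM in control mice and at 37672, 25686 and 27580 CPM in Notch3-/- mice, so Notch3-/- mouse 1 was within the control range. Of the 13 genes of the mitochondrial genome 12 were tested and all 12 were lower, with a median of -0.31, and mt-Nd5, a subunit of respiratory complex I, was the most abundant at 1525 to 2447 CPM. The most abundant genes of the tricarboxylic acid cycle and respiratory chain lists, Ogdh and Atp5a1, had log2 fold changes of -0.28 and -0.26.

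The 4 tested vascular smooth muscle genes had a median of -0.58, with 3 lower, while Smtn, the most abundant, had -0.22. The 7 endothelial genes had a median of 0.08, with Kdr, a VEGF receptor, the most abundant at 0.43. For the 8 fibroblast genes the median was 0.26, with 6 higher, although Dcn, the most abundant, was lower at -0.26. The 8 macrophage genes had a median of 0.15 and Lyz2 0.004. The 5 erythroid genes were all lower, with a median of -0.48 and Hbb-bs at -0.52.

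Lists of tissues near the ventricle were mostly low. Of the atrial list 3 of 5 genes were tested, with a median of -0.44, and Nppa, the atrial natriuretic peptide gene, stood at 27.0, 27.8, 160 and 68.5 CPM in control mice and at 42.6, 190 and 71.1 CPM in Notch3-/- mice, with overlap. Of the adipocyte list 4 of 11 genes were tested, with a median of -0.28, and Plin1, Retn and Ucp1 had at most 10 counts over all mice. Pnpla2, the lipase that is its most abundant gene, had -0.32. Of the skeletal muscle list 3 of 11 were tested, with a median of -0.18, Ckm was the most abundant at -0.25, and Myh2 had at most 10 counts over all mice.

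The 5 sex-linked genes had a median of -0.02, with Xist the most abundant. Ddx3y, a gene of the Y chromosome, was at 358, 4, 552 and 288 counts in control mice and at 1, 636 and 705 in Notch3-/- mice, low in the 2 mice where Xist was high. Ppargc1a, a coactivator and the most abundant of the regulators of fatty acid oxidation, had a log2 fold change of -0.08.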
